A study of Mus musculus with 21 samples.

Results

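The copy number of the genes that make liver tumour cells visible or invisible to T cells was followed in 21 mouse liver tumours: Cd274, Pdcd1lg2 and Jak2 on chromosome 19, Jak1 on chromosome 4, Ifngr1 on chromosome 10, Ifngr2 on chromosome 16, Irf1 on chromosome 11 and B2m on chromosome 2. The genes were chosen by name, and the locus of a gene was every probe that starts within 500 kb of a probe named for it. Of the 8 genes 7 had such probes. The windows of Cd274, Pdcd1lg2 and Jak2 overlap (Cd274 and Jak2 share 59 of the 62 probes of the Cd274 window) and were merged into 1, so that the rule gave 5 loci with 300 of 91879 autosomal probes. No probe carries the name B2m. Its locus, outside the naming rule, was taken from 67 probes whose sequences match the GRCm38 genome within 500 kb of the gene, which made 6 loci and 367 probes.

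All tumours came from male C57BL/6 mice fed CD-HFD, a choline-deficient high-fat diet that causes non-alcoholic steatohepatitis (NASH), for 12 months. Of these mice, 7 with 12 tumours also received anti-PD1 antibody for 8 weeks, and 7 with 9 tumours had the diet alone, here called CD-HFD. The times do not settle whether the weeks of antibody followed the 12 months or fell within them. If they followed, the treated mice were older by those weeks, and age and antibody cannot be told apart. The leading number of a tumour's name was read as the mouse and the number after L as the lesion, which is an inference from the labels. DNA from fixed, paraffin-embedded tumour sections was hybridised in green (Cy3) against a red (Cy5) reference that the labels call a pool of liver tails, without a dye swap.

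Each probe gives log2 of tumour over reference, centred on the median of its array, so that 0 stands for a typical probe there and is no absolute copy number. A section can hold normal liver and immune cells beside tumour cells, so a change in few cells and a smaller change in every cell cannot be told apart. Slide 1 carried 1 array design and slides 2 and 3 another. Of the 59052 spots on an array that are not controls, 65.0 to 99.99% (median 96.5%) were well above background in the tumour channel, and neighbouring probes differed with a noise of 0.41 to 0.68 (log2, median 0.51). The standard error of a locus mean in 1 tumour, from this noise and the number of probes, was 0.061 to 0.12 (median 0.084), and group values can be no more precise than the few mice allow. The noise includes levels that single probes keep across tumours, so this error does not measure how a locus differs between tumours.

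PD-L1, the product of Cd274, and PD-L2, the product of Pdcd1lg2, are the ligands of PD1, the receptor that the antibody blocks on T cells. Interferon-γ from T cells binds a receptor of IFNGR1 and IFNGR2, the kinases JAK1 and JAK2 pass the signal on, and the transcription factor IRF1 switches on PD-L1 and antigen presentation. B2M is the light chain that MHC class I needs to reach the cell surface. In human cancers, amplification of the segment with CD274 and JAK2, and loss of JAK1, JAK2 or B2M, are known ways by which tumours escape T cells, which is the background for asking whether copy number at these genes differed in tumours that grew under anti-PD1.

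The probes that carry the genes' names show how directly each gene was seen. Jak1 had 16, Jak2 8, Ifngr1 4, Pdcd1lg2 3, Ifngr2 3, Cd274 2 and Irf1 1, and those of Cd274 and Irf1 are named only on the design of slides 2 and 3. Of these 37 probes 24 lie in introns, 9 touch a coding exon and 4 lie in untranslated regions, by the match of their sequences to GRCm38 and its annotation. A few are printed as deposited, in mm9 positions and on the plus strand, to show what the array reads in each gene. Capitals mark coding bases, and lower case the intron.
Cd274, chr19:29457034-29457083: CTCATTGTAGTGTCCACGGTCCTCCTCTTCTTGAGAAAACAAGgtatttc
Pdcd1lg2, chr19:29497026-29497085: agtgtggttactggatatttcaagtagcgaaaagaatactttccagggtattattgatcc
Jak2, chr19:29349566-29349625: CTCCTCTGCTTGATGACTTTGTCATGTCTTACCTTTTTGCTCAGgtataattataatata
Jak2, chr19:29365738-29365797: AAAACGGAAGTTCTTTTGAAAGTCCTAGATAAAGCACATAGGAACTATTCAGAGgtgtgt
Ifngr1, chr10:19327129-19327188: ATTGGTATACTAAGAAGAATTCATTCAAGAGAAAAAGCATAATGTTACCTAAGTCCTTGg
Irf1, chr11:53586640-53586699: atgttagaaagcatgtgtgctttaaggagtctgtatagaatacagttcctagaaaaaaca

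Single probes sat at levels of their own. The coding probe of Cd274 was below 0 in every tumour measured with it, from −1.52 to −0.30 (median −0.65) in 8 treated and from −0.67 to −0.27 (median −0.49) in 5 untreated ones. The printed probe of Pdcd1lg2 was also below 0 throughout, at −0.92 to −0.28 (median −0.67) in 12 treated and −1.17 to −0.45 (median −0.77) in 9 untreated tumours. A short distance away, the Jak2 probe at 29365738 was above 0 in every tumour, with 0.071 to 0.83 (median 0.50) in the treated and 0.041 to 0.57 (median 0.33) in the untreated group. The Irf1 probe read 0.28 to 0.94 (median 0.73) in 8 treated and 0.40 to 0.72 (median 0.52) in 5 untreated tumours. The ranges of the groups overlap for all 4 probes. Over the tumours of 1 design, the median of single probes inside the chromosome 19 window ran from −0.96 to 0.68 on slide 1 and from −0.92 to 1.351 on slides 2 and 3, so the locus means below, over 24 to 45 probes an array, were used and not single probes.

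At the PD-L1 locus (chr19:28838954-30029130, 69 probes that name 23 genes, 36 of them on slide 1 and 44 on slides 2 and 3) the tumours of both groups lay close together, with 1 exception. The locus mean was −0.074 in the lowest, 0.030 in the median and 0.34 in the highest of the 12 anti-PD1 tumours, and −0.090, 0.024 and 0.17 in the 9 CD-HFD tumours. The groups overlap over nearly their whole range, and the highest tumour was lesion 6 of mouse 608, treated with anti-PD1. Averaged per mouse, the value was 0.028 ± 0.068 (SD, n = 7) in treated and 0.025 ± 0.069 (SD, n = 7) in untreated mice. The difference was 0.0035 (standard error 0.044, 95% interval −0.089 to 0.096), far below the spread between mice, and 4 of 7 treated mice exceeded the untreated mean (limma adjusted p = 0.9996; two-sided exact permutation test of the mice, p = 0.907). Taken alone, the windows of Cd274, Pdcd1lg2 and Jak2 differed by 0.00015, 0.011 and 0.0020. The sign at the merged locus was not stable, and without mouse 608 the difference was −0.0055.

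**Figure D1:**
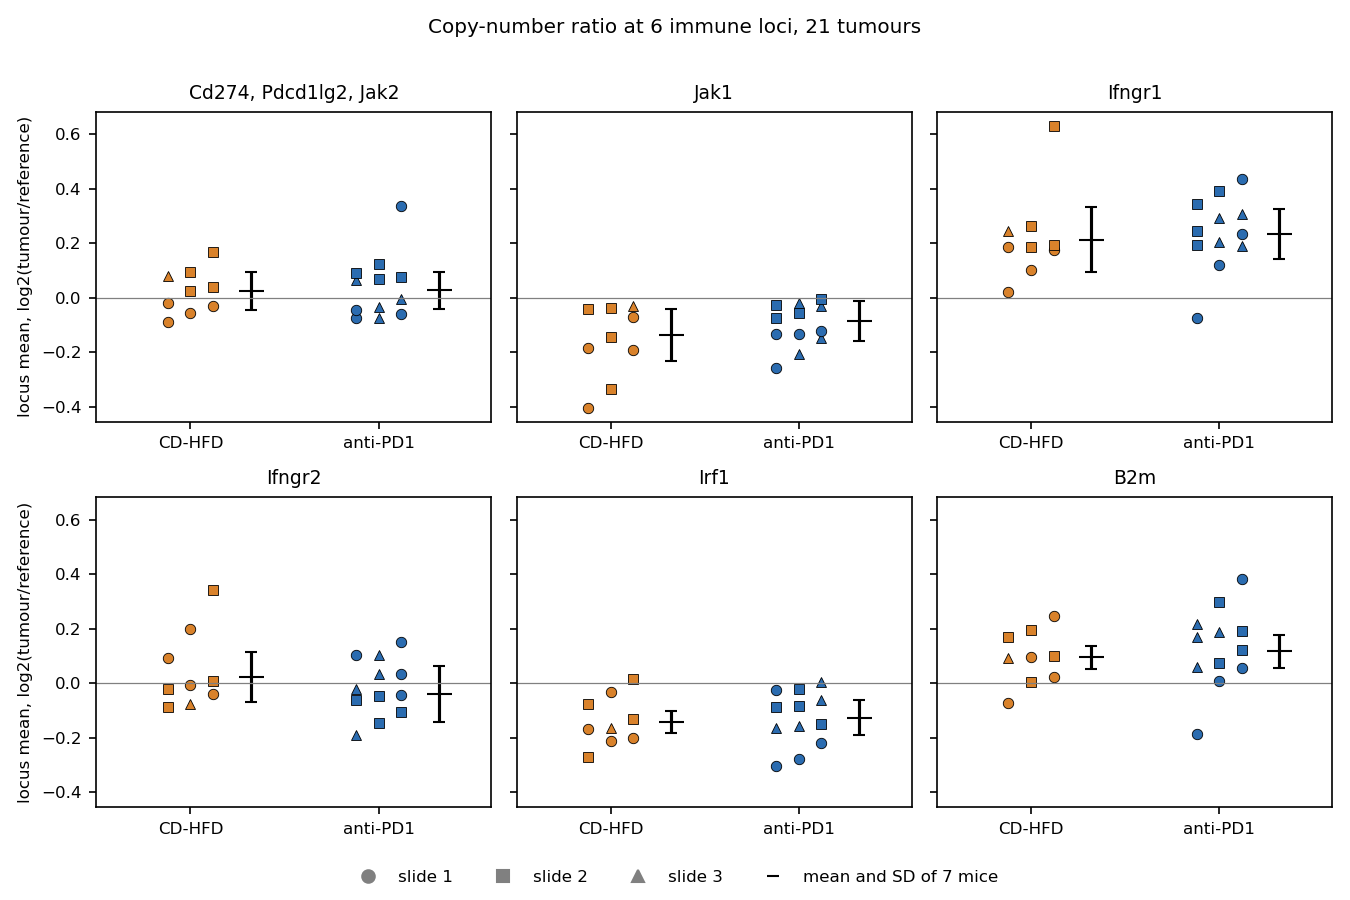
Locus mean (vertical axis, log2 of tumour over reference, centred per array) of the 6 loci in 9 CD-HFD and 12 anti-PD1 tumours; each symbol is a tumour, its shape the slide, and the bar at the side is the mean ± SD of 7 mice. The groups overlap at every locus, and single tumours stand out, such as the anti-PD1 tumour at 0.34 at Cd274, Pdcd1lg2 and Jak2 and the CD-HFD tumour at 0.63 at Ifngr1.

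Lesion 6 of mouse 608 was the 1 tumour of 21 with the PD-L1 locus in a gained segment, by segmentation of each chromosome with a threshold of 0.2 on the segment mean. Its locus mean was 0.34 (standard error 0.081) and its whole chromosome 19 was at 0.27, so the locus lay 0.061 above its chromosome, less than the standard error. This distance was 0.099 with each probe's median subtracted and −0.0040 with the trend with GC content removed. The gained segment had a mean of 0.35 over 31.6 Mb (chr19:11009542-42637497, 971 probes, 58.7% of the chromosome's probes). Its ends depended on the processing. It was 15.8 Mb at 0.30 with each probe's median subtracted, and the whole chromosome at 0.28 after removal of the trend with GC content. The other lesions of this mouse did not show it: lesion 1 had −0.059 at the locus and 0.027 on the chromosome, and lesion 3 had −0.032 and −0.17. Lesion 1 was on the array with the smallest share of tumour spots well above background (65.0%), and lesion 3 was on the other array design. In bins of 2 Mb along chromosome 19, lesion 6 was above 0 in all 30 bins, from 0.025 to 0.56. The tumour with the lowest chromosome 19 was lesion 5 of mouse 612, also treated, at −0.22, with the locus itself at −0.072. Its segment at the locus was −0.19, short of the threshold of 0.2, and −0.20 with probe medians subtracted, past it.

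**Figure D2:**
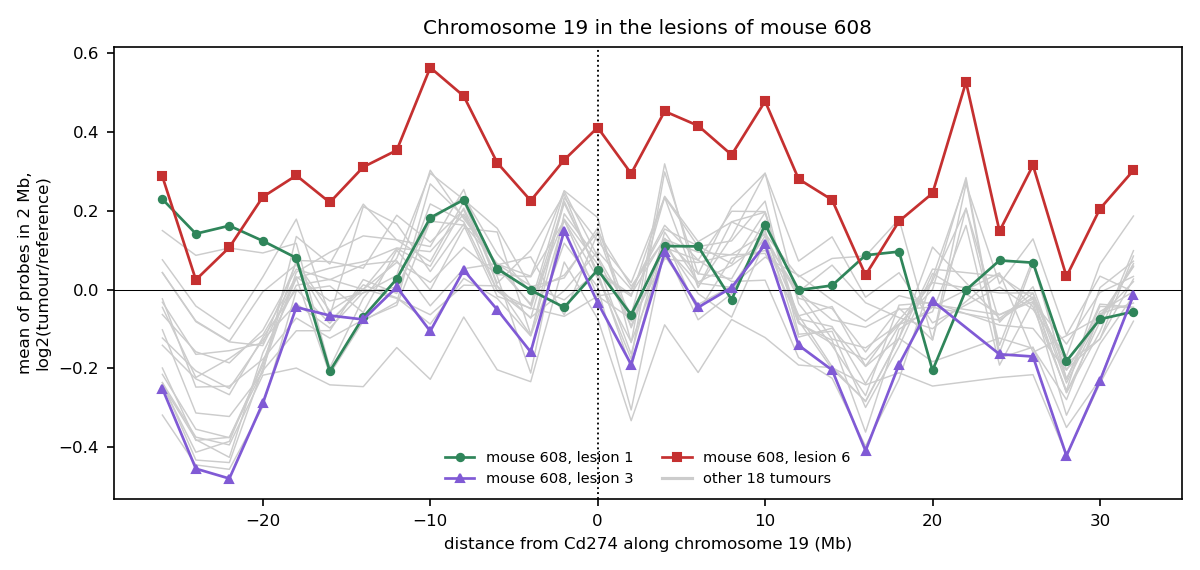
Mean log2 ratio of the probes in bins of 2 Mb (vertical axis) against the distance from Cd274 along chromosome 19 in Mb (horizontal axis, dotted line at Cd274); coloured lines are the 3 lesions of anti-PD1 mouse 608 and grey lines the other 18 tumours. Lesion 6 runs above 0 in all 30 bins (0.025 to 0.56), while lesion 1 of the same mouse runs from −0.21 to 0.23 and lesion 3 from −0.48 to 0.15.

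Among the kinases, Jak1 (chr4:100342214-101412639, 61 probes) was below the array median in all 21 tumours. The share of all gene loci on one side of 0 in so many tumours was not computed. This count, and those at Ifngr1 and Irf1 below, therefore cannot be read as particular to the gene. Other loci were also offset in both groups, such as Tyk2 (mouse means −0.33 treated, −0.28 untreated) and Ifih1 (0.32 and 0.27). The locus mean was −0.26 in the lowest, −0.098 in the median and −0.0060 in the highest anti-PD1 tumour, and −0.40, −0.14 and −0.030 on CD-HFD. The lowest values were in 2 CD-HFD tumours, lesion 1 of mouse 1770 (−0.40, chromosome −0.21) and lesion 1 of mouse 2064 (−0.34, chromosome −0.31), but the ranges overlap. Per mouse, the means were −0.085 ± 0.072 (SD, n = 7) in treated and −0.14 ± 0.096 (SD, n = 7) in untreated mice, a difference of 0.051 (standard error 0.049, 95% interval −0.051 to 0.15; limma adjusted p = 0.9996; exact permutation p = 0.259), and 5 of 7 treated mice exceeded the untreated mean. Segmentation put Jak1 in a loss in those 2 tumours, over the whole chromosome at −0.21 in mouse 1770 and over 113.5 Mb at −0.25 in mouse 2064. Both losses were found again with probe medians subtracted (−0.25 and −0.31) and after removal of the GC trend (−0.21 and −0.31). The other lesions of both mice had no loss there, with segment means of −0.079 in lesion 4 of mouse 1770 and 0.061 in lesion 2 of mouse 2064. The arrays with the losses had 82.1% (mouse 1770) and 85.8% (mouse 2064) of tumour spots well above background. Those of the other lesions had 96.3 and 99.99%, and the part of signal strength was not tested. A gain at 0.21 was called in the tumour of CD-HFD mouse 822, where the locus mean was −0.030. That segment mean was 0.021 with probe medians subtracted and 0.0075 after removal of the GC trend.

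For the receptor of interferon-γ, Ifngr1 (chr10:18842050-19826953, 45 probes) was the locus with the highest ratios. The locus mean was −0.074 in the lowest, 0.24 in the median and 0.44 in the highest anti-PD1 tumour, and 0.020, 0.19 and 0.63 on CD-HFD. It was above 0 in 20 of 21 tumours and above its own chromosome in 21 of 21, by 0.025 to 0.32. This offset was shared by both groups and was smaller on slide 1 than on the others, as given below. The mouse means were 0.23 ± 0.091 (SD, n = 7) in treated and 0.21 ± 0.12 (SD, n = 7) in untreated mice, a difference of 0.020 (standard error 0.055, 95% interval −0.094 to 0.13; limma adjusted p = 0.9996; exact permutation p = 0.730), and 4 of 7 treated mice exceeded the untreated mean. Gained segments held Ifngr1 in lesion 1 of CD-HFD mouse 2064 (0.41 over 76.0 Mb), lesion 6 of anti-PD1 mouse 608 (0.39 over 54.9 Mb) and lesion 1 of anti-PD1 mouse 2094 (0.21 over 55.8 Mb). The first and the second were also called after removal of the GC trend (0.37 and 0.30, over the whole chromosome), and the third was not (0.053). In the opposite direction, lesion 2 of mouse 612 had −0.074 at the locus and −0.17 on chromosome 10, and its segment was −0.14, or −0.21 with probe medians subtracted.

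Ifngr2 (chr16:91054158-92056520, 65 probes) encodes the other receptor chain. The locus mean was −0.19, −0.032 and 0.15 in the lowest, median and highest anti-PD1 tumour and −0.086, −0.0075 and 0.34 on CD-HFD. The highest tumour was again lesion 1 of mouse 2064, in which all of chromosome 16 was gained at 0.43, and this gain stood at 0.40 after removal of the GC trend. Lesion 2 of the same mouse was called gained at 0.23 over 56.1 Mb, but its locus mean was −0.021 and the segment was at 0.053 after removal of the GC trend. Lesion 3 of anti-PD1 mouse 608 had a gain of 0.22 over the last 9.31 Mb with a locus mean of 0.10, and of 0.23 over the whole chromosome after that removal. Per mouse, Ifngr2 had −0.038 ± 0.10 (SD, n = 7) in treated and 0.024 ± 0.091 (SD, n = 7) in untreated mice. This difference of −0.062 was the largest of the 6 loci (standard error 0.053, 95% interval −0.17 to 0.047; limma adjusted p = 0.9996; exact permutation p = 0.250), it was below the SD of either group, and 3 of 7 treated mice exceeded the untreated mean. It was 0.010 on slide 1 (3 and 3 mice), −0.12 on slide 2 (3 and 3 mice) and 0.058 on slide 3 (4 mice and 1 mouse).

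Irf1 (chr11:53097127-54080372, 60 probes) was below 0 in 19 of 21 tumours. It ran from −0.30 through a median of −0.12 to 0.0037 with anti-PD1 and from −0.27 through −0.16 to 0.017 on CD-HFD, with overlapping groups. The mouse means were −0.13 ± 0.064 (SD, n = 7) in treated and −0.14 ± 0.040 (SD, n = 7) in untreated mice, a difference of 0.016 (standard error 0.041, 95% interval −0.069 to 0.10; limma adjusted p = 0.9996; exact permutation p = 0.586), and 4 of 7 treated mice exceeded the untreated mean. The 1 loss was called in lesion 6 of mouse 608, at −0.23 over 81.5 Mb of a chromosome with a mean of −0.22. It was −0.17 with probe medians subtracted and −0.16 after removal of the GC trend, short of the threshold.

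B2m (chr2:121481333-122477925, 67 probes, of which 2 lie inside the gene and carry the name of its neighbour Patl2) was in no gained or lost segment of any tumour, with segment means from −0.088 to 0.13. Its locus mean was −0.19, 0.15 and 0.38 in the lowest, median and highest anti-PD1 tumour and −0.073, 0.096 and 0.25 on CD-HFD. The highest of each group, lesion 1 of mouse 608 and lesion 1 of mouse 1770, were the arrays with the smallest shares of tumour spots well above background, 65.0 and 82.1%. The part of signal strength in these values was not tested. The mouse means were 0.12 ± 0.061 (SD, n = 7) in treated and 0.096 ± 0.042 (SD, n = 7) in untreated mice, a difference of 0.021 (standard error 0.041, 95% interval −0.063 to 0.11; limma adjusted p = 0.9996; exact permutation p = 0.459), and 4 of 7 treated mice exceeded the untreated mean. Without those 2 tumours it was 0.026. Over the 7 probes that both designs carry, the difference turned to −0.11.

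Relative to its own chromosome, which takes out changes of the chromosome as a whole, no locus separated the groups either. The distance of a locus is its mean minus the mean of all probes of its chromosome in the same tumour. For the PD-L1 locus it was 0.081 ± 0.062 (SD, n = 7) in treated and 0.057 ± 0.080 (SD, n = 7) in untreated mice, a difference of 0.025 (standard error 0.038, 95% interval −0.056 to 0.10; limma adjusted p = 0.99997; exact permutation p = 0.517). The differences in distance were 0.027 at Jak1, 0.037 at Ifngr1, −0.049 at Ifngr2, 0.037 at Irf1 and 0.015 at B2m, with exact permutation p from 0.253 to 0.596 and n = 7 and 7 mice. Each was smaller than the larger SD of the groups compared, and the smallest p that 7 mice against 7 allow is 0.000583.

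**Figure D3:**
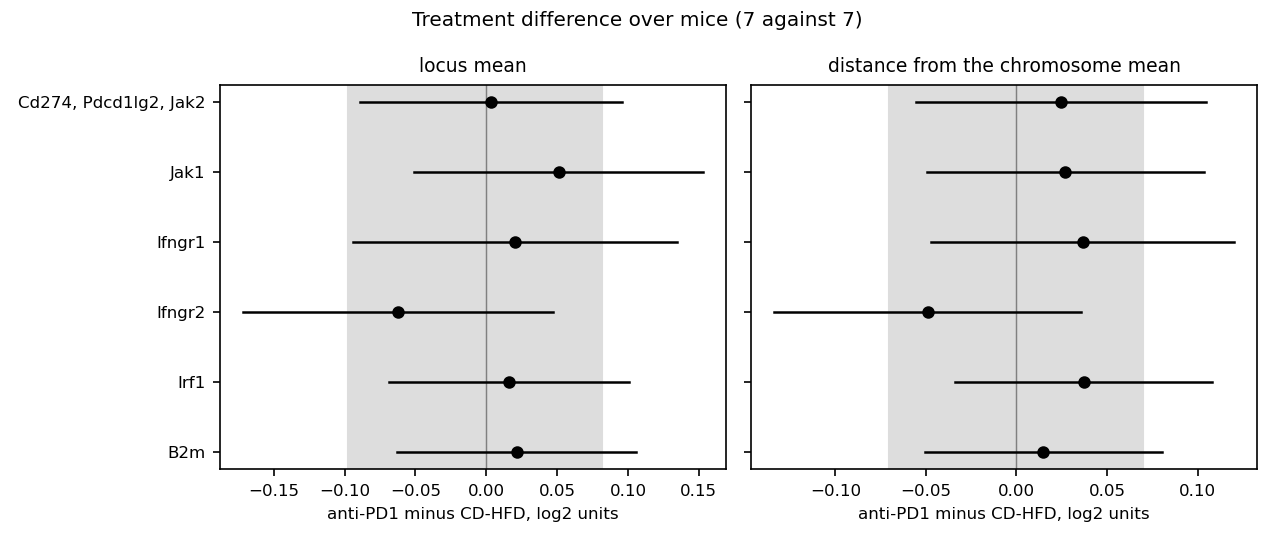
Difference between anti-PD1 and CD-HFD (horizontal axis, log2 units; points, with 95% limma intervals as lines) at the 6 loci, for the locus mean (left) and the distance from the chromosome mean (right), over 7 and 7 mice. Grey marks the range that holds the central 95% of the loci of all 22648 named genes (−0.098 to 0.082 left, −0.070 to 0.070 right), and all 12 points lie inside it with intervals that include 0.

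These results were read against the loci of all 22648 named autosomal genes, built by the same rule and fitted together. In limma (two-sided, Benjamini-Hochberg adjustment over all of them) 0 of 6 loci passed an adjusted p of 0.05 in locus mean, where the background was 0% (0 of 22648), and 0 of 6 in distance, where it was also 0%. At an unadjusted p under 0.05 there were 0 of 6 in either measure, against 0.963% of all loci in locus mean (218) and 1.03% in distance (234). The 95% intervals given with each locus mean show which differences these mice leave possible, from −0.089 to 0.096 at the PD-L1 locus.

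Within slides, each of which holds both groups, the differences in locus mean took both signs. Mice 608 and 612 had tumours on slides 1 and 3, and mouse 2094 on slides 2 and 3. The slides are therefore not independent sets of mice. At the PD-L1 locus the difference was 0.052 on slide 1 and 0.0075 on slide 2 (3 and 3 mice each) and −0.090 on slide 3 (4 mice and 1 mouse). At Jak1 it was 0.031, 0.090 and −0.071, at Ifngr1 −0.014, 0.010 and 0.0024, at Irf1 −0.055, 0.037 and 0.068, and at B2m −0.015, 0.035 and 0.068, in the same order. No locus kept one direction on all 3 slides in locus mean. In distance Ifngr1 (0.0010, 0.038 and 0.018) and B2m (0.011, 0.010 and 0.057) were higher with anti-PD1 on all 3 slides, and the other 4 loci took both signs.

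A gained or lost segment held a member locus in 11 of the 126 pairs of tumour and locus, in 5 of the 14 mice. Of these 8 pairs were gains (6.35%), where 7.91% of the pairs of tumour and gene locus over all named genes were gained, and 3 were losses (2.38%), where 16.1% of all pairs were lost. Lesion 6 of mouse 608 accounted for 3 of the 11 and lesion 1 of mouse 2064 also for 3. Over all gene loci, lesion 6 of mouse 608 had 22.8% gained and 31.5% lost and lesion 1 of mouse 2064 had 19.9% gained and 24.5% lost, the highest and the next highest shares gained in the series. In all 11 pairs the segment was at least 9.31 Mb long, and none was confined to the window of a locus. The segmentation charges a penalty for each break, which works against short segments of weak change. These lengths therefore do not show that changes within a window were absent.

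Position within the tumour gave the same picture. The distance of each locus was ranked among the loci of all named genes of the same tumour, and 1 of 126 pairs lay outside the central 95%, where the background is 5% by construction. It was B2m in lesion 1 of mouse 608, at the 98.6th percentile with a distance of 0.33 (standard error 0.11), on the array with the smallest share of spots well above background. With each probe's median subtracted it was at the 92.8th percentile, and the 1 pair outside the central 95% was then the PD-L1 locus in lesion 6 of mouse 608, at the 98.3rd percentile with a distance of 0.099, while with the GC trend removed that tumour was at the 44.2nd percentile. Without these corrections the PD-L1 locus lay between the 19.8th and the 86.1st percentile (median 76.7) and Jak1 between the 5.48th and the 61.9th (median 45.4). For Ifngr1 the range was the 54.9th to the 94.8th percentile (median 87.9).

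**Figure D4:**
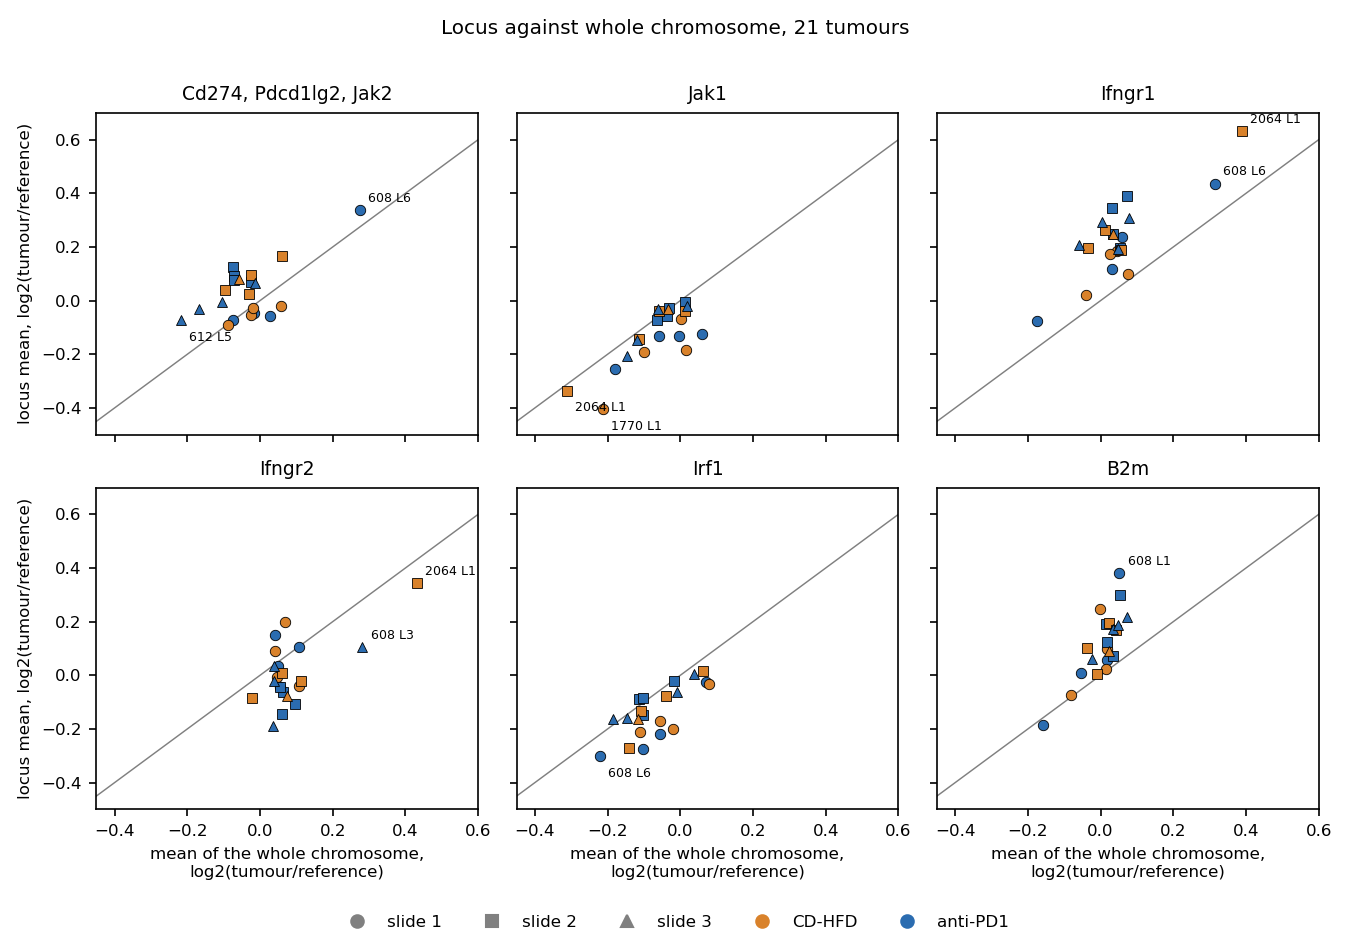
Locus mean (vertical axis) against the mean of the whole chromosome (horizontal axis), both in log2 of tumour over reference, for the 6 loci in 21 tumours; colour gives the group, shape the slide, and the line marks equal values. Tumours with a chromosome mean of at least 0.2 in size, or B2m at 0.33 above its chromosome, are labelled by mouse and lesion. 608 L6 on chromosome 19 (0.34 and 0.27) and 2064 L1 at Jak1, Ifngr1 and Ifngr2 lie far from 0 on both axes, while at Ifngr1 and B2m other tumours are high at the locus with a chromosome near 0, such as 2094 L1 at Ifngr1 (0.39 and 0.072).

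The lesions of 1 mouse were often unlike at these loci. In mouse 2064 (CD-HFD) lesion 1 had −0.34 at Jak1, 0.63 at Ifngr1 and 0.34 at Ifngr2, and lesion 2 had −0.039, 0.26 and −0.021. In mouse 1770 (CD-HFD) lesions 1 and 4, both on slide 1, had −0.40 and −0.19 at Jak1 and 0.20 and −0.039 at Ifngr2. The 3 lesions of mouse 608 (anti-PD1) spanned −0.059 to 0.34 at the PD-L1 locus and −0.19 to 0.38 at B2m. Lesion 1 of mice 608, 1770 and 2064 had 65.0, 82.1 and 85.8% of tumour spots well above background, in that order. The part of signal strength in these contrasts was not tested. In mouse 2094 (anti-PD1) the 3 lesions were closer at the PD-L1 locus (0.067 to 0.12) and at Jak1 (−0.073 to −0.021). At other loci they were not, with 0.19 to 0.39 at Ifngr1 and 0.12 to 0.30 at B2m. Over all gene loci, lesion 1 of this mouse had 19.2% gained and 25.4% lost, and lesion 2 had 0.013 and 0.83%. Mouse 612 (anti-PD1) had −0.074 in lesion 2 and 0.31 in lesion 5 at Ifngr1, on different slides and array designs.

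The distance from the chromosome differed more between slide 1 and slides 2 and 3 than between treatments. Slide 1 alone carried its array design, so design and slide cannot be told apart. At the PD-L1 locus it was −0.085 to 0.061 (median −0.019) in the 8 tumours of slide 1 and 0.056 to 0.20 (median 0.14) in the 13 tumours of slides 2 and 3. At Jak1 it was −0.20 to −0.071 (median −0.11) on slide 1 and −0.059 to 0.032 (median −0.021) on the others, without overlap. Ifngr1 had medians of 0.11 and 0.23, Irf1 −0.11 and −0.034, Ifngr2 −0.0085 and −0.13, and B2m 0.051 and 0.14. Over the 11 probes of the PD-L1 locus that both designs carry, the medians were −0.12 and −0.15 with overlapping ranges, and over the 9 such probes at Jak1 −0.21 and −0.15. Both groups had tumours on both designs, with 4 of each on slide 1.

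**Figure D5:**
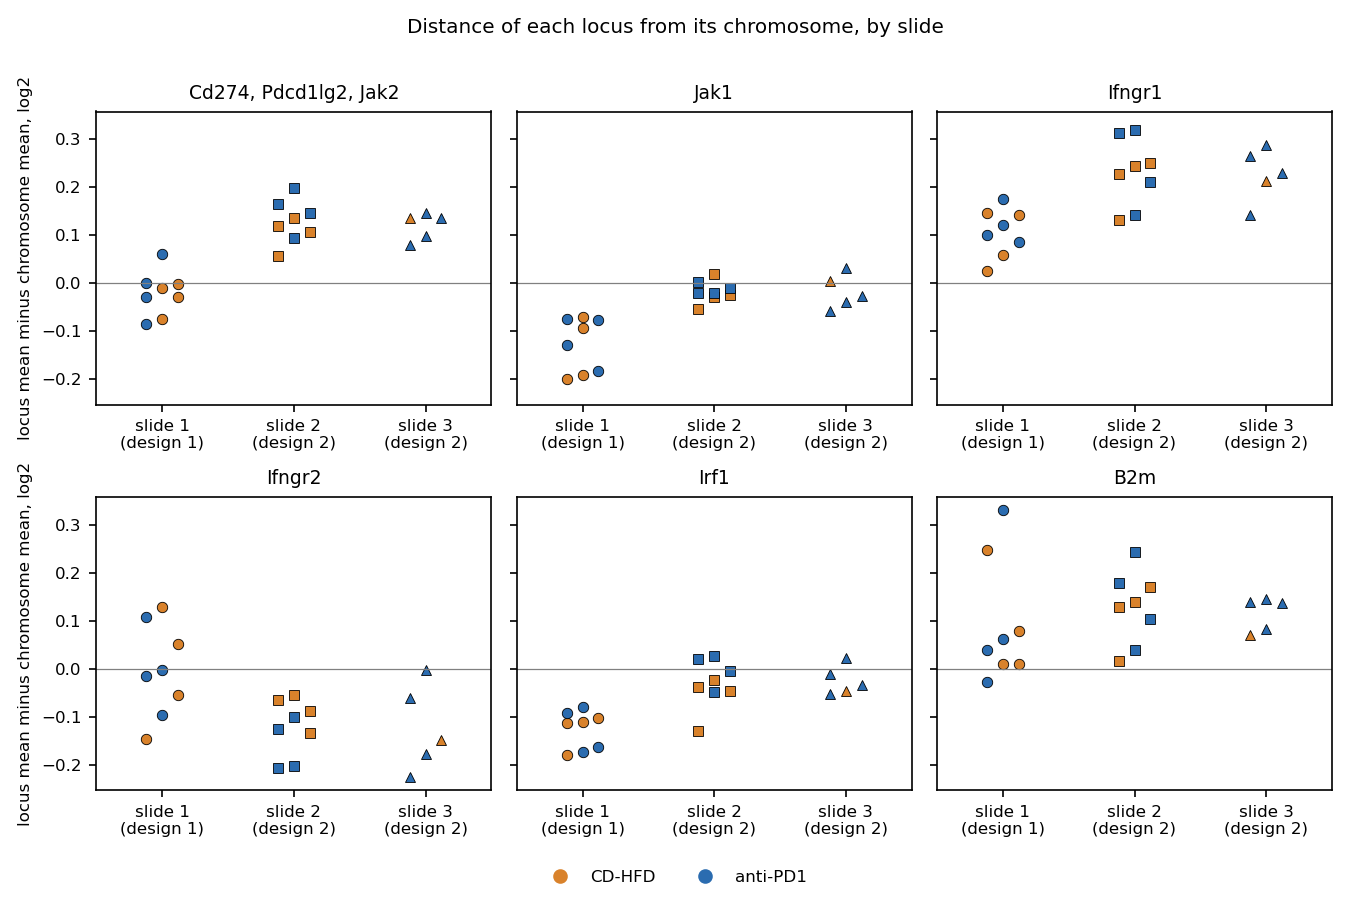
Distance of each locus from the mean of its chromosome (vertical axis, log2) by slide (horizontal axis; slide 1 carries design 1, slides 2 and 3 design 2) in 12 anti-PD1 and 9 CD-HFD tumours, each a symbol. At the PD-L1 locus slide 1 has a median of −0.019 and the others of 0.14, and at Jak1 slide 1 does not overlap slides 2 and 3, which overlap each other, while the groups overlap within each slide that holds several tumours of both.

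The wider pathway was read from a list of 44 genes. It held checkpoint ligands and receptors, interferons and their receptors, kinases and STATs, transcription factors, antigen processing, negative regulators and interferon-induced genes. Probes name 40 of the 44. None of the 40 passed the threshold of limma in locus mean (0 also at an unadjusted p under 0.05). By sign, 11 were higher and 29 lower with anti-PD1, with a median difference of −0.028, beside a median of −0.015 over all 22648 loci, of which 37.3% were higher. In distance 0 of 40 passed (0 also unadjusted), 12 were higher and 28 lower, and the median was −0.014, beside −0.0055 over all loci, of which 43.6% were higher. The ends of the list in locus mean were Ido1, which encodes a tryptophan-degrading enzyme (0.094, standard error 0.061), Rsad2, which encodes the antiviral protein viperin (0.078), Ctla4, the other T cell checkpoint receptor (−0.083), and Usp18, a brake on interferon receptor signalling (−0.086). In distance they were Rsad2 (0.061), Ido1 (0.051), Irf8 (−0.065), a transcription factor of myeloid cells, and Irf3 (−0.070), which acts in interferon induction. Neighbouring genes share probes, such as Ifnar1 and Ifnar2 beside Ifngr2 on chromosome 16, so the list holds fewer independent values than genes.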

How the data were processed

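For each array the authors deposited the scanner software's output (Feature Extraction 11.0.1.1): intensity values of both channels, background-subtracted and dye-normalized by that software, in mm9 positions. The log10 ratio that the authors deposited in the same output served to check the direction of the dyes (reference over tumour). A series table of log2 ratios after loess, also deposited by the authors, covers 11526 probes. The paper's text gives no method for this assay. Processed signals of tumour were divided by those of reference, put on the log2 scale and centred on each array's median. Flagged outlier spots (88 to 228 an array) were left out, and spots of a probe were averaged.

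Locus means over probes within 500 kb, and their distance from the chromosome mean, were averaged per mouse and tested across 22648 gene loci (20165 distinct sets of probes; at least 5 probes on each design) with limma 3.58.1 in R 4.3.3. Single values were tested by exact permutation of 14 mice (3432 splits, two-sided). Segments came from optimal partitioning with least squares (at least 10 probes, threshold 0.2) in Python 3.11.15 with numpy 2.4.6. The penalty was 3σ² ln n, with σ the noise between neighbouring probes and n the number of probes, both of that chromosome in that tumour. Of these steps, only the limma fit and the segmentation were tried on simulated data. The simulations used independent loci and independent probe noise, while real loci share probes and real probes keep levels of their own. They therefore do not show how the steps perform on these arrays. Nothing in the labels says more of the mice than their numbers, so p-values set the group difference against the spread between mice as read from the names.

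The genes, lists and tests were chosen with earlier results of these data known. All 8 genes were described, and of the pathway list only the ends. The genome at hand was GRCm38: exact matches of the probes' sequences (99.9% of 96474 had a single place) gave the annotation, the B2m locus and the GC content, taken over each probe and over its surrounding 50 kb. No coordinates were converted. The alternatives were loess ratios, normexp (offset 50), spots well above background, 250 kb, 1 Mb, named probes only, medians, probes of both designs, probe medians subtracted, the GC trend removed, the chromosome without the locus, every tumour as a unit with or without the mouse as a random block, the slide as a term, other segment settings, and each mouse left out. Leaving out the 2 tumours with the weakest signal, and the B2m locus by sequence match, were chosen after seeing the data.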

Additional observations from a re-analysis of the deposited data

How the results depend on the processing

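No difference at a member locus passed the threshold in limma under any alternative (smallest adjusted p = 0.794), and of 172 differences under alternatives other than leaving out a mouse 153 kept their sign and 19 reversed. In locus mean the PD-L1 locus reversed to −0.013 within 250 kb, −0.037 within 1 Mb, −0.066 over named probes only, −0.0076 with probe medians subtracted and −0.0032 with the GC trend removed, Ifngr1 to −0.013 with loess ratios, Irf1 to −0.012 with medians, and B2m to −0.062 with loess ratios, −0.026 within 250 kb, −0.024 with medians and −0.11 over probes of both designs. In distance the PD-L1 locus reversed to −0.016 within 1 Mb and −0.045 over named probes, Jak1 to −0.022 with loess ratios and −0.0092 within 250 kb, and B2m to −0.072 with loess ratios, −0.032 within 250 kb, −0.037 with medians and −0.11 over probes of both designs (unadjusted p = 0.021, adjusted p = 0.804 in limma). With the same sign, named probes only moved Jak1 to 0.17 in locus mean and 0.15 in distance, Ifngr1 to 0.15 and 0.16, Ifngr2 to −0.22 and −0.21 and Irf1 to 0.12 and 0.12, medians moved Ifngr1 to 0.098 and 0.10 (the latter with an unadjusted p = 0.021, adjusted p = 0.99928 in limma), and probes of both designs moved the PD-L1 locus to 0.060 and 0.066. The cause was not tested. With each mouse left out in turn, the locus mean differed by −0.0097 to 0.020 at the PD-L1 locus (reversed without 608, 1770, 2067, 2085, 2094, 2097 or 2116), by −0.0055 without 1770 to 0.059 at Ifngr1, and by −0.0013 without 2116 to 0.031 at Irf1. With the tumours of weakest signal left out all signs were kept.

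The count of gene loci past the threshold stayed at 0 in locus mean, and in distance rose to 2 with named probes only (DUXBL1, −1.52, and PLAC9B, −1.45, neither chosen by rule). The 11 altered pairs became 34 at a threshold of 0.1, 4 at 0.3 and 7 with the GC trend removed. The share of all named gene loci called was not computed at these settings, so these counts cannot be read as many or few. The 1 pair outside the central 95% became 2 with the GC trend removed (B2m in lesion 1 of mouse 608 and Ifngr1 in mouse 2097) and another 1 with probe medians subtracted (the PD-L1 locus in lesion 6 of mouse 608). With named probes only, Cd274 and Irf1 rest on tumours of slides 2 and 3, and B2m could not be fitted. No paired analysis was possible because no mouse belongs to both groups. Segments shorter than 10 probes could not be called, the penalty worked against short segments of weak change, and array noise limits changes confined to 1 gene.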

Other observations

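Of 24 groups of 7 mice (6 loci, both measures, both treatments) tested by Dixon's criterion, 0 held a mouse that stood apart from the rest, where chance gives about 1.2. The largest gaps relative to the range were those of CD-HFD mice at Ifngr1 in locus mean (0.519, mouse 2064 at 0.45) and at B2m in locus mean (0.471, mouse 2115 at 0.17), both below the critical value for 7 mice.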
